A study of Mus musculus with 18 samples.

Results

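Irf1, Irf2, Irf3, Irf5, Irf7, Irf8 and Irf9 encode interferon regulatory factors, and their newly transcribed RNA was followed in NIH-3T3 cells, an established line of mouse embryonic fibroblasts, over 6 treatments. They were taken as every probe set, that is every group of array probes against one transcript, whose platform annotation gave 1 of these symbols and no other. This gave 12 probe sets for the 7 genes, out of 45037 probe sets and 18193 genes with a symbol of their own. The 18 arrays were 3 biological replicates of each treatment, and all cells received 500 µM 4-thiouridine (4sU), a nucleoside that tags RNA made while it is present, for the last 30 min of the hour of treatment. Cells were pretreated for 15 min with DMSO or with cycloheximide (CHX), an inhibitor of protein synthesis. They then received no interferon, 100 U/ml IFNα or 100 U/ml IFNγ. The groups are called mock, IFNα and IFNγ without CHX, and CHX, IFNα+CHX and IFNγ+CHX with it. Comparing an interferon with and without CHX asks whether the response of a gene needs, or is held back by, protein made after the pretreatment. Arrays of whole cultures give a mean over cells, so a response in fewer cells and a weaker response in each cell cannot be told apart.

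Interferon regulatory factors share a DNA-binding domain and bind the interferon-stimulated response element (ISRE) and related IRF elements. IFNα signalling leads to the complex ISGF3, which contains IRF9 and STAT2 and binds the ISRE, and IFNγ signalling acts mainly through the gamma-activated site (GAS). IRF1 is an activator made on demand, IRF2 binds many of the same elements and is known as a repressor, IRF3, IRF5 and IRF7 are activated by phosphorylation after pathogen sensing, and IRF8 is best known from leukocytes.

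The labelled cell type was checked against its markers. All 8 fibroblast markers passed the filter on low values, and their summed intensity was 44818 to 54176 on the arrays without CHX and 52105 to 64256 with CHX. Of 10 leukocyte markers 2 passed, Cd68 and Lyz2, and Ptprc, Itgam, Csf1r, Adgre1, Cd79a, Cd3e and Spi1 were at 6.5 or below on every array. The leukocyte sum was 99 to 160.1 without CHX and 194.6 to 335.9 with CHX, mostly from Cd68, and its part in the effects of CHX given below was not tested. Array medians lay between 9.6 and 10.8, and replicate arrays correlated at r = 0.959 to 0.995 over log2 intensity. Intensities are the deposited linear values, gc-RMA normalized by the study's methods, and levels are not compared between probe sets.

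The promoters of the genes are shown because GAS, ISRE and κB elements are known regulatory elements of interferon-inducible and inflammatory genes, the ISRE bound by ISGF3 and the IRFs and the κB element by NF-κB. RefSeq windows (GRCm38.p6) of 250 bases before to 50 bases after a transcription start were found for all 7 genes, 10 windows in all. GAS was searched as TTCNNNGAA, the ISRE/IRF core as GAAA, any 2 bases and GAAA, and the κB element by its common decamer, on both strands, and no matches overlapped. The 250 bases before the start in the first window are given for the 3 genes called with an interferon and for Irf2, the gene with a match to each motif. They run 5′ to 3′ on the strand of the gene, with matches in capitals. Irf1 lies on the plus strand at chr11:53769764-53770013, Irf2 on the plus strand at chr8:46739495-46739744, Irf7 on the minus strand at chr7:141266425-141266674 and Irf9 on the plus strand at chr14:55603735-55603984.
Irf1: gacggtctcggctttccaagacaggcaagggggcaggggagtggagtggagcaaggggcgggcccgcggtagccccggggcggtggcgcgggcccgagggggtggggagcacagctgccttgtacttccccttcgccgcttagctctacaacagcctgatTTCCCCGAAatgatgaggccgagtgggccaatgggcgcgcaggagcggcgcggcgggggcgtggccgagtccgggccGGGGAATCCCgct
Irf2: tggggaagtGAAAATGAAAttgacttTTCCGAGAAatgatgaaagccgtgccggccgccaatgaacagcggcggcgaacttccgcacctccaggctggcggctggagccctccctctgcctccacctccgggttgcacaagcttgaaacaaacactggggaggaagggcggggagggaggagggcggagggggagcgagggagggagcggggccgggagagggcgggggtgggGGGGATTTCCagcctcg
Irf7: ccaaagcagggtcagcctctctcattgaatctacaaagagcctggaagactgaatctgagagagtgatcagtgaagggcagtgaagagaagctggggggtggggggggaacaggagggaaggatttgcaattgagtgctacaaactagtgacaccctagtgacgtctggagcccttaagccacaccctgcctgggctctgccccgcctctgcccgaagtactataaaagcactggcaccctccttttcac
Irf9: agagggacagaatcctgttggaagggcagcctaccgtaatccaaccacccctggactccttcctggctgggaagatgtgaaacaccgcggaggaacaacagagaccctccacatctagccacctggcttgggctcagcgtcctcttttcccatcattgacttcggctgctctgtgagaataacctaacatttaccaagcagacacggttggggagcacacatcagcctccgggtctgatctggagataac
In the Irf1 window the GAS match TTCCCCGAA lay 90 to 82 bases and the κB match GGGGAATCCC 13 to 4 bases upstream of the start. The Irf2 window held an ISRE/IRF match, GAAAATGAAA, at 241 to 232 bases, a GAS match, TTCCGAGAA, at 224 to 216 bases and a κB match, GGGGATTTCC, at 17 to 8 bases upstream. Irf8 held a pair of GAS matches, TTCTCGGAA at 171 to 163 bases and TTCAGAGAA at 153 to 145 bases upstream. The windows of Irf3, Irf5, Irf7 and Irf9 and the second windows of Irf1 and Irf8 held none, which says only that these letters are not in these stretches. The annotated Irf7 gene, on the minus strand, reaches to position 141266499, so part of its stretch lies inside the gene. The annotated Irf5 gene begins at 29526130, before its window at 29526375. Regions before the outermost annotated starts of these 2 genes were thus not fully searched. Of 32851 windows of all genes 3.44% held the ISRE/IRF core, 8.3% GAS and 8.46% κB.

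**Figure D1:**
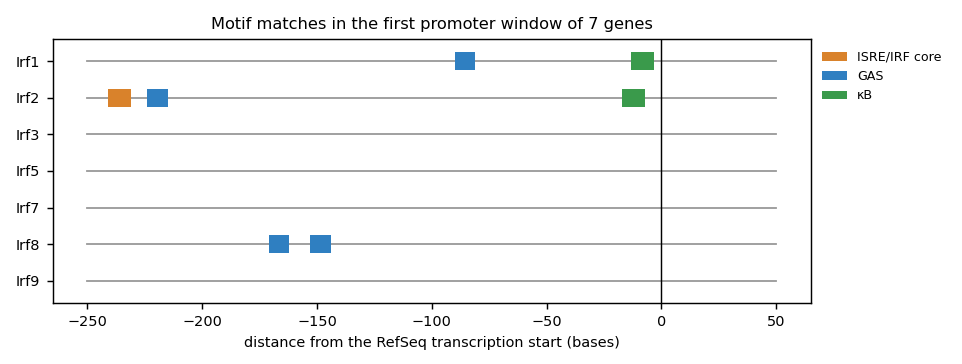
Motif matches in the first RefSeq promoter window of the 7 genes, by distance in bases from the transcription start (0, vertical line), with 250 bases before and 50 bases after it. Orange marks the ISRE/IRF core, blue GAS and green κB, and matches are seen in Irf1, Irf2 and Irf8.

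Irf1 was the member with the broadest response, higher with IFNα, with IFNγ and with CHX alone. On the mock arrays its intensity was 376, 204 and 213. It was 4070, 4151 and 3580.4 with IFNα and 13276, 12456 and 11533 with IFNγ. No array of either interferon came near the mock range, and the IFNγ arrays lay wholly above the IFNα arrays. With CHX alone it was 2465, 1501 and 1319.9, also wholly above mock. It reached 11268, 11656 and 10501 with IFNα+CHX and 21428, 15500.5 and 16527 with IFNγ+CHX. In decreasing order the treatments were IFNγ+CHX, IFNγ, IFNα+CHX, IFNα, CHX and mock, and the only neighbours whose arrays overlapped were IFNγ and IFNα+CHX.

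IFNα raised Irf1 15.5-fold, a log2 change of 3.95 ± 0.24 (SE, 3 arrays against 3), with an adjusted p of 7.70e-08 by limma's moderated test. IFNγ raised it 48.9-fold, a log2 change of 5.61 ± 0.24 (adjusted p 1.46e-09), and the step from IFNα to IFNγ was 3.16-fold (adjusted p 6.74e-04). CHX alone raised it 6.69-fold (adjusted p 3.38e-06). With CHX present, IFNα raised Irf1 a further 6.56-fold over CHX alone (adjusted p 4.07e-06) and IFNγ 10.4-fold (adjusted p 2.23e-07). In a fit to the 6 arrays of that comparison alone the IFNα step had an adjusted p of 0.0111, past the threshold of 0.01. Adding CHX to IFNα raised Irf1 2.84-fold (adjusted p 4.47e-04). Adding it to IFNγ gave 1.42-fold, which did not pass although the groups did not overlap (95% interval of the log2 change -0.00 to 1.02, adjusted p 0.145). With CHX present, the difference between IFNγ and IFNα was 1.58-fold and did not pass either (95% interval 0.15 to 1.18, adjusted p 0.133).

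The fold change of Irf1 by IFNγ was smaller with CHX than without it. The difference of the 2 log2 changes was -2.23 ± 0.34 (SE), a 4.7-fold smaller step with CHX, with an adjusted p of 0.00698. For IFNα the same difference was -1.24 ± 0.34 and did not pass (adjusted p 0.312). The call for IFNγ was close to the threshold. Its adjusted p was 0.0118 without the filter on low values and 0.0610 in a fit to the 12 arrays involved. It was past 0.01 when mock array 2 or 3, any IFNγ array, CHX array 2 or IFNγ+CHX array 2 or 3 was left out, at up to 0.0225, while the value stayed between -2.52 and -1.96. The highest intensities of any probe set on the IFNγ+CHX arrays were 31863, 29038 and 31784, against 21428, 15500.5 and 16527 for Irf1 on the same arrays, and the part of this upper range in the difference was not tested.

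**Figure D2:**
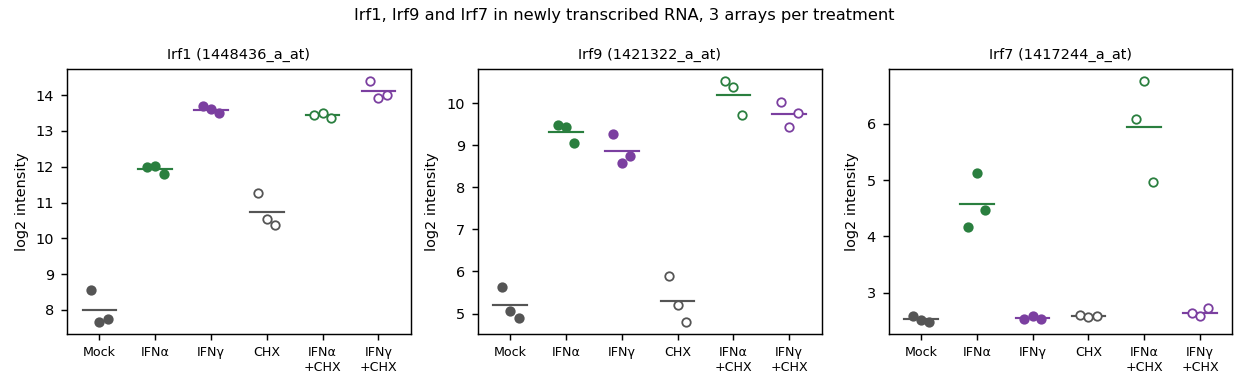
Log2 intensity of Irf1, Irf9 and Irf7 on each of the 18 arrays, by treatment, each panel with its own axis. Points are arrays, filled without and open with CHX, and lines are means of 3 arrays. Irf1 rose with both interferons and with CHX alone, Irf9 with both interferons, and Irf7 with IFNα only among the treatments without CHX.

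Irf9, the DNA-binding subunit of ISGF3, was higher with both interferons. Its intensity on the mock arrays was 49.6, 33.4 and 29.5. It was 714, 692 and 531 with IFNα and 619, 382 and 429.8 with IFNγ. Both interferon groups lay wholly above mock, and they overlapped each other. With CHX alone it was 59.3, 36.9 and 28, across the mock range. It was 1465, 1325 and 835 with IFNα+CHX and 1039, 695 and 875 with IFNγ+CHX. The 2 highest values of all arrays were those of IFNα+CHX, and the arrays of IFNα+CHX and IFNγ+CHX overlapped.

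IFNα raised Irf9 17.5-fold, a log2 change of 4.13 ± 0.30 (SE, 3 arrays against 3), with an adjusted p of 7.45e-07. IFNγ raised it 12.8-fold (3.67 ± 0.30, adjusted p 2.28e-06). The difference between the 2 interferons was a log2 change of -0.46 with a 95% interval of -1.10 to 0.19 (adjusted p 0.981). CHX alone gave 0.11, with an interval of -0.54 to 0.75 (adjusted p 0.823). Over CHX alone, IFNα+CHX was 29.8-fold higher (adjusted p 5.55e-08) and IFNγ+CHX 21.8-fold higher (adjusted p 1.47e-07). CHX added to IFNα gave a log2 change of 0.88 (adjusted p 0.0546) and CHX added to IFNγ 0.88 (adjusted p 0.0473), neither past the threshold, although the arrays with CHX lay above those without it in both cases. The change of the interferon effect with CHX was 0.77 ± 0.42 for each interferon and did not pass. All 4 interferon calls of Irf9 held under every alternative that was run.

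Irf7, an amplifier of type I interferon production that is itself interferon-inducible, was above the low end of the array only with IFNα. On the 12 arrays without IFNα it lay between 5.6 and 6.6, below the lowest maximum of any probe set kept, 8.5, so it passed the filter through the IFNα arrays. It was 17.9, 34.9 and 22 with IFNα and 68.2, 107.8 and 31.3 with IFNα+CHX. All 6 arrays with IFNα lay above the 12 others, while the 2 groups with IFNα overlapped each other. Folds against groups at this floor are given as bounds, with each dim array set to 8.5. IFNα raised Irf7 at least 2.82-fold without CHX (adjusted p 0.00343) and at least 7.21-fold with CHX (adjusted p 1.17e-05). With IFNγ, as in its controls, Irf7 stayed at this floor, and a change below it was not measurable. IFNγ arrays lay below IFNα arrays by the same bounds, without CHX (adjusted p 0.00162) and with it (adjusted p 1.01e-05). CHX raised Irf7 2.56-fold in the presence of IFNα (adjusted p 0.00822), but the change of the IFNα effect with CHX, 1.30 ± 0.46, which rests on control groups at the floor, did not pass (adjusted p 0.777).

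The calls of Irf7, made at low intensities, were less firm than the interferon calls of Irf9 and the steps of Irf1 over mock. On the scale of log2(intensity + 16) the IFNα step without CHX was 0.89 (adjusted p 0.185), and in a fit to the arrays compared alone its adjusted p was 0.0462. Without the filter, which Irf7 passed only through its IFNα arrays, the adjusted p was 0.00915. The call was also lost when any mock array, IFNα array 2 or IFNα array 3 was left out (adjusted p up to 0.0262). The step with CHX over CHX alone was lost only in the fit to the arrays compared (adjusted p 0.0588). The CHX effect in the presence of IFNα was lost on the log2(intensity + 16) scale (0.97, adjusted p 0.0115), without the filter (adjusted p 0.0170), with quantile normalization (adjusted p 0.0118), with the arrays compared alone (adjusted p 0.144) and without IFNα array 1 or 3 or IFNα+CHX array 1 or 2. The lower level with IFNγ than with IFNα was lost on the log2(intensity + 16) scale (-0.88, adjusted p 0.0837), with the arrays compared alone (adjusted p 0.0202) and without IFNα array 2 (adjusted p 0.0117).

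Irf3, the latent factor that is phosphorylated after sensing of nucleic acids, had no called change by interferon and was higher with CHX. Its main probe set, 1426111_x_at, was at 476, 379.5 and 482 on the mock arrays, 460.4, 459 and 468 with IFNα and 471, 476 and 508 with IFNγ. With CHX it was 874, 859 and 750.1, with IFNα+CHX 959, 940 and 892, and with IFNγ+CHX 1069, 1024 and 740.2. All 9 arrays with CHX lay above all 9 without it.

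CHX alone changed the main probe set of Irf3 by 0.90 ± 0.13 on the log2 scale, 1.86-fold (adjusted p 2.56e-04), which is under the minimum of 2-fold for a call. Added to IFNα, CHX gave 2.01-fold (1.01 ± 0.13, adjusted p 8.55e-05), just past that minimum, and added to IFNγ 1.92-fold (adjusted p 1.36e-04), just under it. The 2.01-fold step fell below 2-fold with log2(intensity + 16), with median centring and without IFNα+CHX array 1 or 2. Without IFNγ+CHX array 3 the step with IFNγ was 1.11 and passed. IFNα gave 0.06 (95% interval -0.22 to 0.34) and IFNγ 0.13 (-0.15 to 0.41), and with CHX present the steps were 0.17 and 0.18.

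The other 3 probe sets of Irf3 followed the main one over the 18 arrays, at r = 0.959 for 1435271_at, 0.871 for 1416898_a_at and 0.810 for 1438721_a_at, and their largest values were 724, 124 and 128. CHX alone raised 1435271_at 2.5-fold (adjusted p 0.00103) and 1438721_a_at 3.07-fold (adjusted p 0.00676), and 1416898_a_at was 2.22-fold higher without passing (adjusted p 0.0219). They parted in the IFNγ+CHX group. There 1438721_a_at was at 56.7, 63.6 and 37, against 127.3, 70.3 and 109.3 with CHX alone, a log2 change of -0.96 that did not pass (95% interval -1.75 to -0.16, adjusted p 0.168). The main probe set was 0.18 higher in the same comparison (-0.11 to 0.46).

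**Figure D3:**
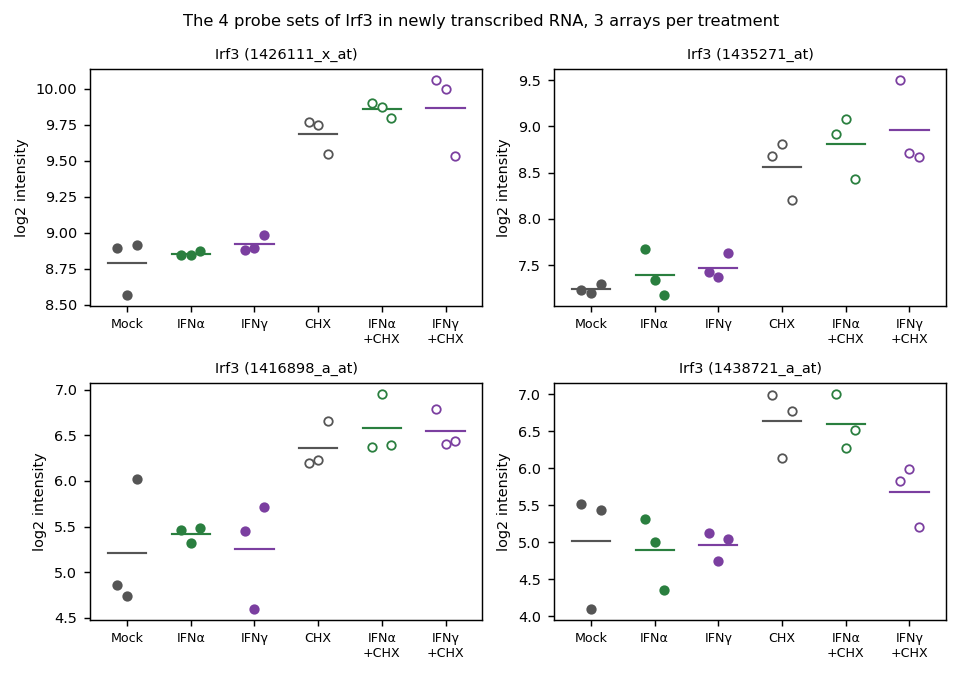
Log2 intensity of the 4 probe sets of Irf3 on each array, by treatment, each panel with its own axis. Points are arrays, filled without and open with CHX, and lines are means of 3 arrays. All 4 probe sets had higher means with CHX than without it under each interferon treatment.

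Irf2, known as an antagonist of IRF1 on shared elements, had no called change in the fit without a replicate block. Its intensity was 390.1, 181.5 and 142 on the mock arrays, 423, 209 and 153 with IFNα and 428, 457 and 293 with IFNγ. With CHX it was 424.5, 251 and 188, with IFNα+CHX 833, 414 and 645 and with IFNγ+CHX 558, 632 and 382. In the mock, IFNα, CHX and IFNα+CHX groups the highest array was over 2-fold above the lowest, and it was array 1 in each of them. Each treatment overlapped its neighbours in the order of means. The log2 change was 0.14 with IFNα (95% interval -0.80 to 1.09), 0.84 with IFNγ (-0.11 to 1.79) and 0.33 with CHX (-0.62 to 1.28), and all 3 intervals included 0. The largest was that of CHX added to IFNα, 1.35 ± 0.44 with an adjusted p of 0.0451, and with the replicate block it passed (adjusted p 0.00309).

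Irf5, which acts downstream of Toll-like receptors, was measured by 2 probe sets that did not move together (r = -0.267 over 18 arrays). The main one, 1449678_at, lay between 36.3 and 104.8, with 87.7, 104.8 and 90 on the mock arrays and 36.3, 84.6 and 79.7 with IFNα. The mock arrays lay above every other array except 1 of IFNγ, at 88.7. None of its 11 comparisons passed, with a CHX effect of -0.35 (95% interval -0.996 to 0.30). The other, 1460231_at, lay between 5.1 and 21.7, with the highest group IFNα at 21.7, 17.2 and 13.2 and the mock arrays at 12.6, 8.8 and 9.5. Its IFNα step of 0.74 did not pass (adjusted p 0.128), and the lower level with IFNα+CHX than with IFNα, -0.998 ± 0.19, had an adjusted p of 0.00174 at just under 2-fold. On 6 of 18 arrays it was below 8.5.

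Irf8 was at the floor. Its probe set 1416714_at lay between 4.5 and 5.6 on all 18 arrays and 1448452_at between 3.4 and 3.5, below the filter, so Irf8 was not tested. The single value above 4.7 was 5.6, on 1 IFNγ+CHX array.

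**Figure D4:**
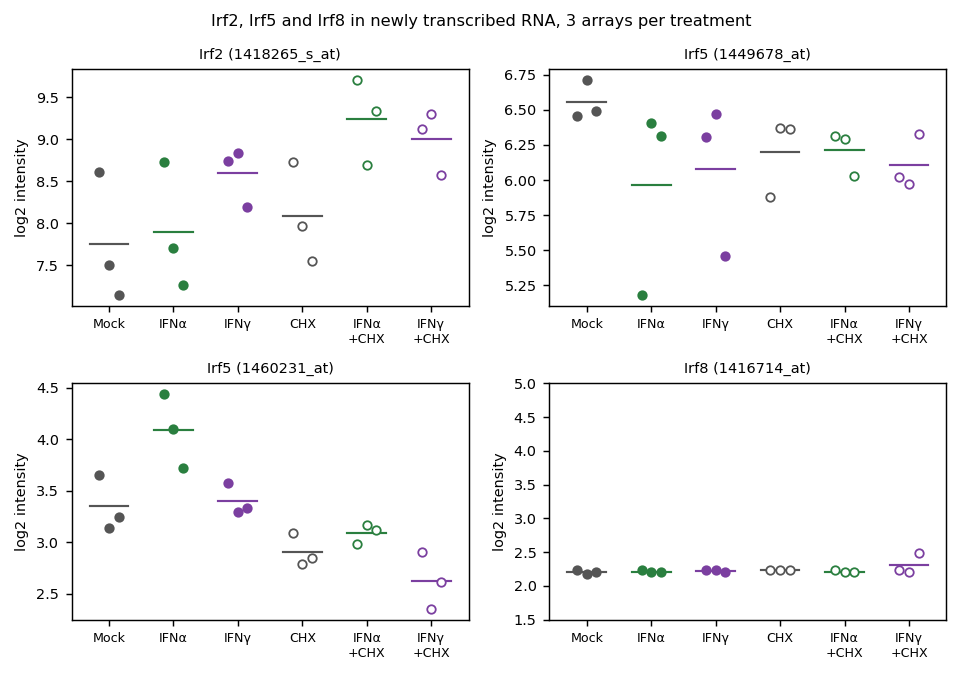
Log2 intensity of Irf2, of both Irf5 probe sets and of the brighter Irf8 probe set on each array, by treatment, each panel with its own axis. Points are arrays, filled without and open with CHX, and lines are means of 3 arrays. Neighbouring groups of Irf2 overlapped, the main Irf5 probe set was highest on the mock arrays, and Irf8 lay near a log2 intensity of 2.2 throughout.

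Read against all genes, the calls were made at an adjusted p below 0.01 with at least a 2-fold change, over 12087 genes, with 1 probe set for each gene. Comparisons that share the mock or CHX arrays are not independent of each other. The members were chosen with earlier results of these data known, so the counts are descriptive. Irf7 passed the filter only through its IFNα arrays, which bears on every count below that names it. IFNα over mock called 3 of the 6 genes tested higher (Irf1, Irf7 and Irf9) against 0.596% of all genes tested, and IFNγ called 2 (Irf1 and Irf9) against 2.03%. CHX over mock called 1 higher (Irf1) against 2.56%, and none lower against 5.43%. With CHX present, IFNα called 3 higher (Irf1, Irf7 and Irf9) against 1.19% and IFNγ 2 (Irf1 and Irf9) against 3.42%.

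CHX added to IFNα called 3 higher (Irf1, Irf3 and Irf7) and none lower, against 3.98% and 4.49% of all genes. Added to IFNγ it called none higher and none lower, against 3.32% and 7.64%. IFNγ against IFNα called Irf1 higher and Irf7 lower, against 1.52% and 0.513%. With CHX it called none higher and Irf7 lower, against 2.29% and 1.52%. The change of the interferon effect with CHX called none higher for IFNα against 0.29% (Irf1 and Irf7 had an unadjusted p under 0.05). For IFNγ it called none higher and Irf1 lower, against 0.306% and 0.0579%. The median log2 change of the 6 genes tested was 1.10 with IFNα, 0.48 with IFNγ and 0.22 with CHX, against -0.0047, 0.0059 and -0.012 over all genes tested, and Irf7 entered these medians only through its IFNα arrays.

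**Figure D5:**
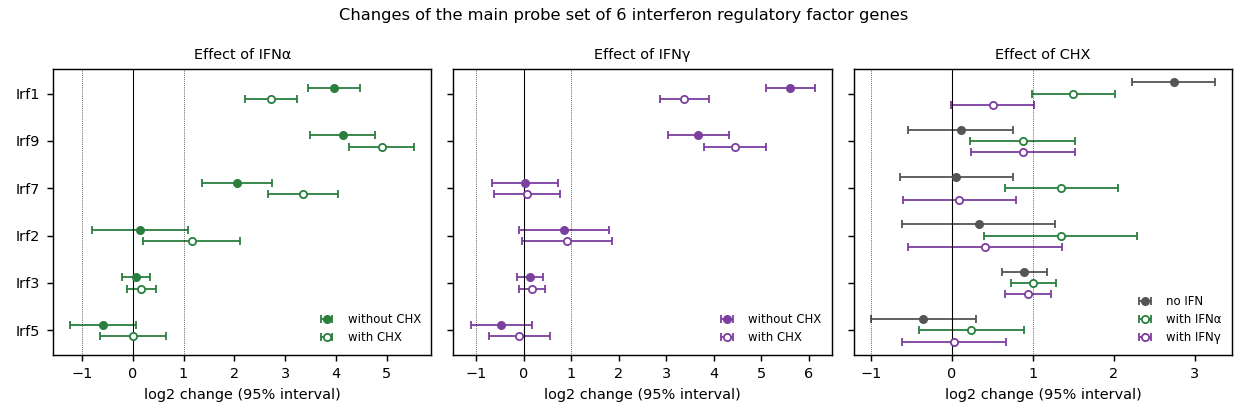
Log2 change of the main probe set of 6 genes with IFNα, with IFNγ and with CHX, each without and with the other agent. Points are estimates from the fit over 18 arrays, bars are 95% intervals and dotted lines mark 2-fold. Interferon steps of Irf7 start from control groups at the floor. The IFNγ step of Irf1 is smaller with CHX, a call close to the threshold. Its IFNα step is also smaller with CHX, but that difference did not pass. Irf2 and Irf5 have wide intervals that meet 0 in most comparisons.

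The genes whose pattern over the 18 arrays was most like a member were found by Pearson correlation of log2 intensity, among 12087 genes. The arrays share the treatments, so r is a description. For Irf1 they were Cxcl10, a T cell chemokine (r = 0.984), Ifi47 (0.951) and Parp3 (0.944). For Irf9 they were Trim21, a cytosolic antibody receptor (0.982), Parp14 (0.979) and Parp9 (0.974). For Irf7 they were Ifit3 (0.969), Tent5a (0.967) and Mx1 (0.966), of which Ifit3 and Mx1 encode antiviral proteins. Irf7 passed the filter only through its IFNα arrays and was below 8.5 on the 12 others. Its r values thus mainly set arrays with IFNα against arrays at the floor. Mx1 was also near this floor without IFNα, with group geometric means of 7.99 to 8.81. For Irf3 they were Gm15050 (0.984), 4833438C02Rik (0.975) and Dnttip1 (0.969).

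Over all genes IFNα raised 0.596% and IFNγ 2.03%, which are the shares beside which the lists that follow are counted. Among 9 tested receptors, kinases and STATs, IFNα raised 1, Stat2, by 4.55 on the log2 scale, and IFNγ raised 3, Stat2 by 4.18, Ifnar2, a subunit of the IFNα receptor, by 1.79 and Stat3 by 1.74. No gene of the list was lowered by either interferon. CHX alone called none of the 9, though Ifngr1, a subunit of the IFNγ receptor, differed by 0.98 (adjusted p 5.01e-05), just under 2-fold. Of 11 tested genes that activate IRF3, IRF5 or IRF7, IFNα raised 3, the RNA sensors Ddx58 by 4.54 and Ifih1 by 3.18 and the Toll-like receptor Tlr3 by 2.33. Ifih1 passed the filter on low values only through arrays with IFNα, so its place in this count rests on the filter. IFNγ raised 3, the DNA-sensing adaptor Sting1 by 3.75, the adaptor Myd88 by 1.61 and Ddx58 again, by 1.04.

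Of 7 tested partners and co-regulators, IFNγ raised 1, Batf2, an AP-1 family factor, by 1.70 without CHX and by 2.82 with it. Added to IFNγ, CHX lowered 2, Irf2bp1, by a log2 change of -1.55, and Irf2bp2, by -1.29, both known as partners of IRF2. With CHX alone Irf2bp1 differed by -1.38 (adjusted p 0.0152) and with CHX added to IFNα by -1.45 (adjusted p 0.0110), and Irf2bp2 by -0.70 (adjusted p 0.131) and -0.72 (adjusted p 0.122), none of them called. Of 17 tested well-known targets of IRF1 or ISGF3, IFNα raised 12 and IFNγ 7, against 0.596% and 2.03% of all genes. With CHX present they raised 14 and 8, against 1.19% and 3.42%. CHX alone raised 1 of the 17, Cxcl10, by 3.73 (adjusted p 3.59e-05), and Irf1 RNA rose by 2.74 in the same comparison. A link between these rises was not tested. For cells given interferon, the paper's immunoblot showed no induction of IRF1 protein when CHX was present. That statement is about interferon and does not cover the rises with CHX alone. The effect of IFNα was larger with CHX for 7 of the 17, against 0.29% of all genes, with the largest differences in Nlrc5, a regulator of MHC class I genes (3.43), and in Rsad2 (2.89) and Oasl1 (2.83), both antiviral. For IFNγ it was larger for 2 of the 17 (0.306% of all genes), Nlrc5 (2.28) and Usp18, an inhibitor of IFNα receptor signalling (1.66). For no target was it smaller past the threshold, though Cxcl10 differed by -2.42 (adjusted p 0.127) and Gbp2 by -1.37 (adjusted p 0.148). CHX added to IFNγ raised 3 of the 17 and lowered 1, Gbp2, by a log2 change of -1.60 (adjusted p 3.38e-04). The shares of all genes were 3.32% and 7.64%. Ifih1, Batf2, Nlrc5, Oasl1 and Usp18 were below 8.5 on every array of the mock group and of at least 1 other group, so their log2 changes depend on that floor. Rsad2 was close to it, with geometric means of 8.47 with mock, 8.66 with IFNγ and 8.91 with CHX. Of 20 listed targets with a probe set, 17 were tested. Mx2 and Oasl1 among them passed the filter only through arrays with IFNα, and Batf2 among the partners only through arrays with IFNγ. The counts of these lists thus rest in part on the filter.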

How the data were processed

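The authors purified 4sU-tagged RNA, hybridised it to Affymetrix arrays of the mouse genome and, per the study's methods, normalized with gc-RMA, and the deposited values are linear intensity, unfiltered. The submitters' notes name Affymetrix Expression Console, so which software made the deposited values is not settled. If they are gc-RMA values, intensities near background were drawn together, which compresses changes of dim probe sets. Of 45101 rows, 64 Affymetrix controls were left out. The 27773 probe sets with the highest maximum over the 18 arrays were kept (maximum at least 8.5), since the present calls the study filtered on were not used here. Symbols came from the platform annotation: 34945 probe sets had 1 symbol, 932 several and 9160 none. One probe set with the highest mean stood for each gene.

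Log2 intensity was fitted over all 18 arrays with 1 mean per treatment in limma 3.58.1 (R 4.3.3; 12 residual and 2.05 prior degrees of freedom), Benjamini-Hochberg adjusted over all probe sets kept, and a call needed an adjusted p below 0.01 and a change of at least 2-fold. The code was tested on simulated data. In all, 11 comparisons were made, 2 of them of the interferon effect with against without CHX. Arrays carry no counts, and their number limits the precision. Promoter windows came from RefSeq (GRCm38.p6).

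The members and gene lists were chosen with earlier results of these data known. All 12 probe sets of the 7 genes are reported, with the 3 genes most like each called member and up to 3 called genes of largest change from each pathway list. Alternatives were log2(intensity + 16), no filter, a maximum of at least 32, quantile normalization, median centring, only the arrays compared, a replicate block, a trended robust prior, any probe set of a gene, no minimum fold, and leaving out each array.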

Additional observations from a re-analysis of the deposited data

Results flagged for a closer look

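The effect of IFNγ on Irf1 differed between cells with and without CHX by a test of the difference itself. It was -2.23 ± 0.34 (SE) on the log2 scale with an adjusted p of 0.00698 by limma, from a 48.9-fold step without CHX and a 10.4-fold step with it. All 3 arrays of each interferon group lay above all 3 arrays of its control, with and without CHX. CHX alone raised Irf1 6.69-fold, and its level was highest with IFNγ+CHX (geometric mean 17640, against 12401 with IFNγ). The adjusted p of the difference was 0.0118 without the filter on low values and 0.0610 in a fit to the arrays involved alone. The call was lost when mock array 2 or 3, any IFNγ array, CHX array 2 or IFNγ+CHX array 2 or 3 was left out.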

How the results depend on the processing

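Of 660 values of single genes under alternatives, 632 kept their side of the call rule, 25 lost the call, 3 gained it and 0 reversed a called direction. Among the 632, 6 differed in sign where neither fit was called, and sign changes in leave-one-out fits were not counted. Leave-one-out fits entered only as the lowest and highest value of each gene and comparison, which share 1 label. Counts of called IRF genes moved as follows. Smaller moves were those of IFNα+CHX over IFNα, from 3 to 2 without the filter, with quantile normalization, with median centring, with only the arrays compared and without IFNα array 1 or 3, and of IFNα over mock, from 3 to 2 with Irf7 lost, on the log2(intensity + 16) scale, with only the arrays compared and without any mock array or IFNα array 2 or 3. The others moved by over 1.5 times. With any probe set of a gene, or with no minimum fold, CHX over mock called 2 in place of 1 and IFNγ+CHX over IFNγ called 1 in place of 0, Irf3 being the added gene. With only the arrays compared, IFNα+CHX over CHX called 1 in place of 3, IFNγ against IFNα 1 in place of 2, IFNγ+CHX against IFNα+CHX 0 in place of 1, and the change of the IFNγ effect with CHX 0 in place of 1. On the log2(intensity + 16) scale IFNα+CHX over IFNα called 1 in place of 3 and IFNγ against IFNα 1 in place of 2, and without the filter the change of the IFNγ effect called 0 in place of 1. Leaving out 1 array gave 1 to 3 calls for IFNα+CHX over IFNα (1 without IFNα+CHX array 1 or 2), 0 to 1 for IFNγ+CHX over IFNγ (1 without IFNγ+CHX array 3), 1 to 2 for IFNγ against IFNα (1 without IFNα array 2) and 0 to 1 for the change of the IFNγ effect. The fit to fewer arrays has fewer degrees of freedom, and for the others the cause was not tested.

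A replicate block gave 4 in place of 3 called IRF genes for IFNα+CHX over IFNα, Irf2 being added (1.35, adjusted p 0.00309), and the other 10 counts did not change. For these 2 groups the 3 pairs of the same number had r of 0.618, 0.241 and 0.317. The main fit had no replicate block, since the study's methods name none. Across the series, over 45 pairs of the same number r ranged from -0.401 to 0.784 (median 0.474), and 38 were over 0.1. Of 18 arrays, 14 had their highest mean r with the arrays of their own number in other treatments. Most arrays of the same number thus shared part of their deviation from the treatment means, which the main fit leaves in its spread. Values under about 8.5, those of Irf8 and of Irf7 without IFNα, are near background.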
